A study of Drosophila melanogaster with 60 samples.

Results

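The Drosophila melanogaster genes CG4836 (array probe DAC026M12), CG17376 (DAC017H11), CG3124 (DAC034M09), CG33340 (DAC023B11) and CG9130 (DAC003K22), which carry only CG numbers, were followed through metamorphosis on whole-animal microarrays. They were 5 of 15744 gene probes, and they were chosen by measured values: each was among the probes with the largest difference of wild type males from wild type females, of wild type males from tud males, or between the sex differences of the 2 genotypes. That they were high in wild type males is therefore how they were picked and is given below without a test. Differences between hours within a kind of animal were not used to pick them, and these are what was tested. The same arrays served for the choice and for the tests, and earlier results of these data were known. The tests are therefore not fully separate from the choice.

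Each of the 60 arrays compared RNA of whole animals with a common reference, a mix of RNA from wild type pupae of both sexes and every stage, so that a value is the log2 ratio of a sample to that reference and a value of 0 means the level of the pool. The 4 kinds of animal were tud males, wild type males, tud females and wild type females, each at 0, 24, 48, 72 and 96 hours after puparium formation (APF), with 3 arrays at each hour and a pool of pupae behind each RNA. Groups follow the titles of the arrays. For tud females at 48 h, the other labels of replicate 1 repeat those of the reference and those of replicate 2 give a slightly earlier age, and the design text differs by 1 hour from the labels at 72 h. Wild type animals were of the Canton S strain. The animals called tud were offspring of tud1 bw1 sp1 mothers, crossed to y, w males that carried P[w+cM UBI-GFP] together with a further P element bearing an FRT site, so they were not isogenic with Canton S, and the daughters carried the GFP marker. The labels do not say that the 3 arrays of a group came from separate cultures, so p-values measure the spread between these arrays. In whole animals, fewer cells of a type and less RNA per cell cannot be told apart.

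The tudor gene acts in the mother: without it eggs lack germ plasm, and the offspring develop without germ cells in otherwise formed gonads. In the testis, germline stem cells give rise to spermatogonia and then to primary spermatocytes, which transcribe many of the genes used later in meiosis and in building the sperm. Testes of prepupae already hold spermatocytes, and meiosis and spermatid differentiation follow during pupal life. The files and tables used here give none of the 5 genes a role.

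The dye given to the sample differs between the labels and the methods, so the direction of the ratio was checked on roX1, a non-coding RNA of male dosage compensation: it averaged 1.18 ± 0.52 over 30 male arrays and -4.79 ± 1.58 over 28 female arrays (SD), with no overlap (two-sided permutation test, p = 2.0e-05, the smallest that 100000 resamples can give). Positive values thus stand for more RNA in the sample. The arrays held values for 3954 to 10236 probes, and their medians lay between -0.03 and 0.32.

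Among tud males 2 arrays stood apart from the other 13 in the genes described here. On the array of tud males at 48 h, replicate 1, the 5 genes lay between -3.14 and -2.69, and on that of tud males at 96 h, replicate 2, between -3.35 and -2.75. The medians of the 5 genes on these 2 arrays were -2.87 and -2.78, against -6.73 to -4.61 on the other 13. The lowest 1% of all probes ended at -4.03 on the first, against -5.26 and -5.35 on the other tud male arrays of 48 h, and at -3.90 on the second, against -5.57 and -5.53 on the others of 96 h. Their low end was thus above that of their replicates, in the range of the tud male arrays of 72 h (-4.50 to -3.73). roX1 was 1.92 and 0.60 on them, within the 0.20 to 2.01 of the other tud male arrays. What set them apart was not tested. The averaged differences between animals and the joint tests of males are given with and without them. Ranges of single genes in tud males include them.

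**Figure D1:**
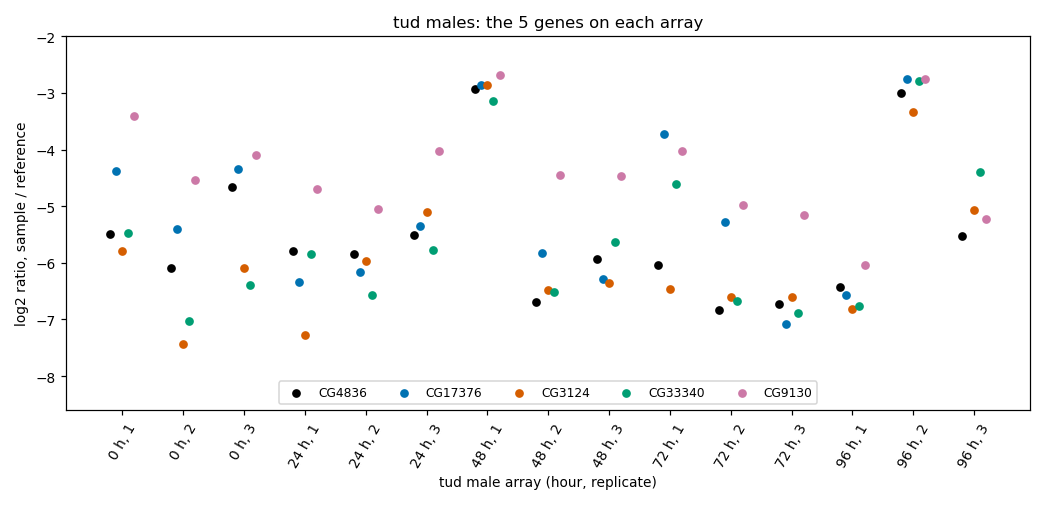
The log2 ratio to the reference (vertical axis) of the 5 genes on each of the 15 tud male arrays (horizontal axis, hour APF and replicate). The 2 arrays at 48 h, replicate 1, and 96 h, replicate 2, hold all their points between -3.35 and -2.69, above the points of the same genes on the other arrays.

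In wild type males all 5 genes stood near or below the reference at 0 h, were above it at 24 h, had their highest mean at 48 h and had a lower mean again at 96 h. At 0 h they already stood above tud males of that hour, by 3.77 (CG9130) to 6.11 (CG3124) on the log2 scale. That is the kind of contrast by which they were chosen, so it is given without a test. For CG3124 the means at 24 h and 48 h both round to 1.31. Over the 5 genes, the values at 0 h ran from -0.68 to 0.14 and those at 24 h from 0.84 to 1.39. The 48 h arrays held values of 1.15 to 1.42, the 72 h arrays 0.67 to 1.28, and the 96 h arrays 0.42 to 1.04. The values at 0 h and those at 24 h did not overlap for any of the 5 genes. The share of all probes with such a gap was not counted, so it does not mark out the 5 genes. Among all probes with a value on an array, the log2 ratios of the 5 genes lay between the 19.7th and the 50.8th percentile at 0 h and between the 95.5th and the 97.9th at 48 h.

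CG4836 had log2 ratios of -0.32, -0.06 and -0.05 on the 3 wild type male arrays at 0 h. The 24 h arrays gave 1.21, 0.97 and 1.11, and the 48 h arrays 1.15, 1.30 and 1.31. Later values were 1.28, 1.15 and 1.04 for 72 h, then 0.75, 0.88 and 0.96 for 96 h. The arrays from 24 to 72 h overlapped, and the 3 arrays at 96 h lay below all of them.

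CG17376 was nearest to the reference at the start, with 0.00, 0.14 and -0.44 at 0 h. It measured 0.96, 0.98 and 0.98 at 24 h, the tightest group of 3 arrays for any of the 5 genes, and 1.33, 1.22 and 1.42 at 48 h. The ratios were 0.99, 0.71 and 1.05 at 72 h, then 0.57, 0.42 and 0.79 at 96 h. Its 3 arrays at 48 h lay above all others, and those at 72 h and 96 h overlapped.

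CG3124 had -0.48, -0.38 and -0.12 at 0 h, and 1.28, 1.39 and 1.26 at 24 h. It was 1.24, 1.33 and 1.36 at 48 h, a group that overlapped with 24 h. It then measured 1.11, 0.94 and 1.14 at 72 h and 0.54, 0.60 and 0.58 at 96 h. Each of these 2 last hours lay wholly below the one before it.

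CG33340 started lowest, with -0.68, -0.49 and -0.22 at 0 h. The 24 h arrays gave 1.12, 1.27 and 1.17, and the 48 h arrays 1.25, 1.32 and 1.40. At 72 h the gene measured 1.15, 0.87 and 1.11, and the values of 96 h were 0.81, 0.92 and 1.04. Its last 2 hours overlapped, and both lay below 48 h.

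CG9130 had -0.09, -0.22 and -0.43 at 0 h, 1.02, 0.84 and 0.93 at 24 h, and 1.21, 1.18 and 1.17 at 48 h. It was the one whose mean at 72 h was below that at 96 h, with 0.74, 0.67 and 0.71 at 72 h against 0.94, 0.74 and 0.81 at 96 h. The lowest array at 96 h and the highest at 72 h differed by less than 0.01. The RefSeq table of Release 6 gives CG9130 an overlap with CG9133, and CG33340 one with CG33339 and with CG17784, so for these 2 probes the signal may include the overlapping genes.

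**Figure D2:**
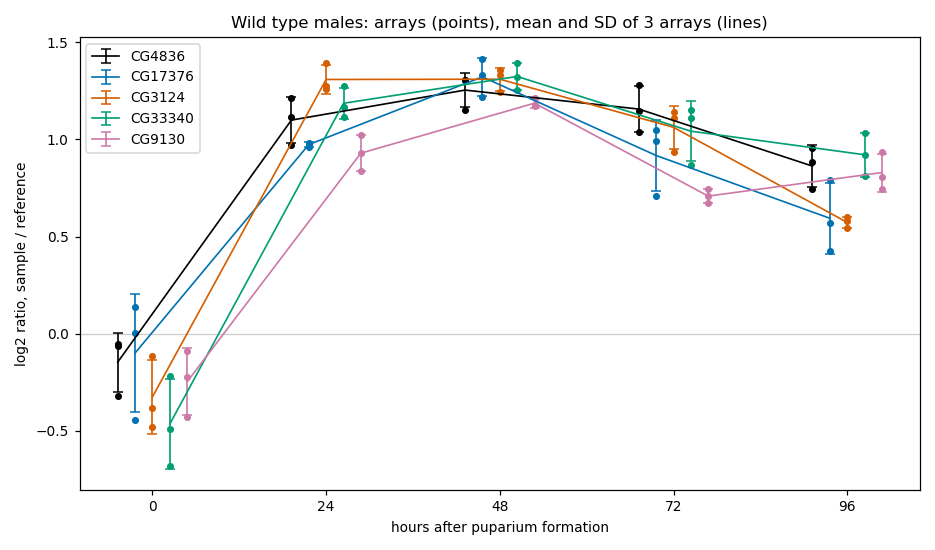
The log2 ratio to the reference (vertical axis) in wild type males at each hour APF (horizontal axis) for the 5 genes. Points are arrays and lines join means ± SD of 3 arrays, with genes set side by side within an hour. All points at 0 h are at or below 0.14, and all from 24 h on are at or above 0.42.

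Time effects were tested with limma by a model of the 20 group means on all 60 arrays, with Benjamini-Hochberg adjustment over all probes tested and calls at an adjusted p below 0.15. All 5 genes passed the filter, a value on at least 2 of 3 arrays in each group compared. This model gives each probe 1 spread for all groups, and for these genes that spread was set outside wild type males: the residual SD was between 0.72 and 1.00 over 60 arrays, and between 0.10 and 0.18 over the 15 wild type male arrays. Results are therefore given from both fits. Over all probes the difference was small, with a median residual SD of 0.35 in the 60-array fit and 0.29 in the 15-array fit.

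The joint test over the 5 hours in wild type males called 1 of the 5 genes in the 60-array fit, CG3124 (adjusted p = 0.136), and gave adjusted p = 0.173 for CG9130, 0.181 for CG4836, 0.207 for CG33340 and 0.421 for CG17376. In that fit 81.7% of all tested probes were called. In the 15-array fit all 5 were called, with adjusted p from 8.87e-07 (CG3124) to 8.09e-05 (CG17376), and so were 89.0% of all tested probes. A change with time in these animals was thus the rule among probes and does not mark out the 5 genes. Leaving out 1 wild type male array ended the 60-array call of CG3124 in all cases but 72 h replicate 2, 96 h replicate 1 and 96 h replicate 2. Without the 2 tud male arrays that stood apart, the 60-array fit called 4 of 5.

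The size and direction of the steps say more. From 0 h to 24 h the means rose by 1.07 to 1.65 on the log2 scale. CG33340 rose by 1.65 ± 0.15 (SE of the 15-array fit, limma adjusted p = 5.59e-06) and CG3124 by 1.64 ± 0.13 (adjusted p = 2.21e-06). CG4836 rose by 1.25 ± 0.14 (adjusted p = 2.82e-05), CG9130 by 1.18 ± 0.13 (adjusted p = 2.77e-05) and CG17376 by 1.07 ± 0.17 (adjusted p = 0.000427). In this fit 5 of 5 were called higher, against 25.8% of all probes, and none of the 5 calls was lost when any 1 of the 15 arrays was left out. The 60-array fit called 4 of 5 higher, against 20.5% of probes, and left out CG17376 (adjusted p = 0.295). Its calls rested on single arrays: it called 0 of 5 without 0 h replicate 1, 3 of 5 without 0 h replicate 3, and 1 of 5 without 0 h replicate 2 or any of the 24 h arrays.

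As a comparison chosen after the values were seen, the 12 wild type male arrays from 24 to 96 h were set against the 3 at 0 h. The difference was 1.58 for CG33340, 1.39 for CG3124, 1.24 for CG4836, 1.16 for CG9130 and 1.05 for CG17376. Each gene was higher on 12 of 12 later arrays than on any 0 h array. How many of all probes did so was not counted. Since this split was made after the gap had been seen, these differences are a description. An exact permutation test was run on the split, but with no overlap its p could only be the smallest possible. That p is therefore not given as evidence.

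From 24 h to 48 h no step was called in either fit (0 of 5, with 11.4% of probes called higher in the 60-array fit and 11.4% in the 15-array fit). The unadjusted p of the 15-array fit was lowest for CG17376, whose mean differed by 0.35 with a 95% interval of -0.02 to 0.72, and for CG9130, with 0.26 (-0.03 to 0.54). For CG3124 the difference was 0.00 (-0.29 to 0.29), for CG33340 0.14 (-0.19 to 0.46) and for CG4836 0.15 (-0.15 to 0.46). These intervals bound the step but do not show that the hours were alike.

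From 48 h to 72 h the 60-array fit called 0 of 5 lower, where 16.8% of probes were. The 15-array fit called 2 of 5 lower, where 17.7% of probes were: CG9130 fell by 0.48 ± 0.13 (SE, limma adjusted p = 0.0227) and CG17376 fell by 0.41 ± 0.17 (adjusted p = 0.126). The call of CG9130 held without any 1 array, while that of CG17376 was lost without any of the 48 h arrays or without 72 h replicate 1 or 2 (adjusted p up to 0.354). The differences of CG33340 (-0.28), CG3124 (-0.25) and CG4836 (-0.10) were not called.

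From 72 h to 96 h the 60-array fit again called 0 of 5 lower, where 26.7% of probes were. In the 15-array fit CG3124 fell by 0.49 ± 0.13 (SE, limma adjusted p = 0.0107) and CG4836 fell by 0.29 ± 0.14 (adjusted p = 0.110), 2 of 5 where 28.6% of all probes were called lower. CG3124 kept its call without any 1 array. CG4836 lost it without 72 h replicate 1 or 2 or without 96 h replicate 1 or 2 (adjusted p up to 0.287), and CG17376, at -0.32 and just past the threshold for a call, gained it without 72 h replicate 2 or 96 h replicate 3. CG33340 (-0.12) and CG9130 (0.12) were not called. Beside these shares of all probes, 2 of 5 at each late step does not mark out the 5 genes.

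**Figure D3:**
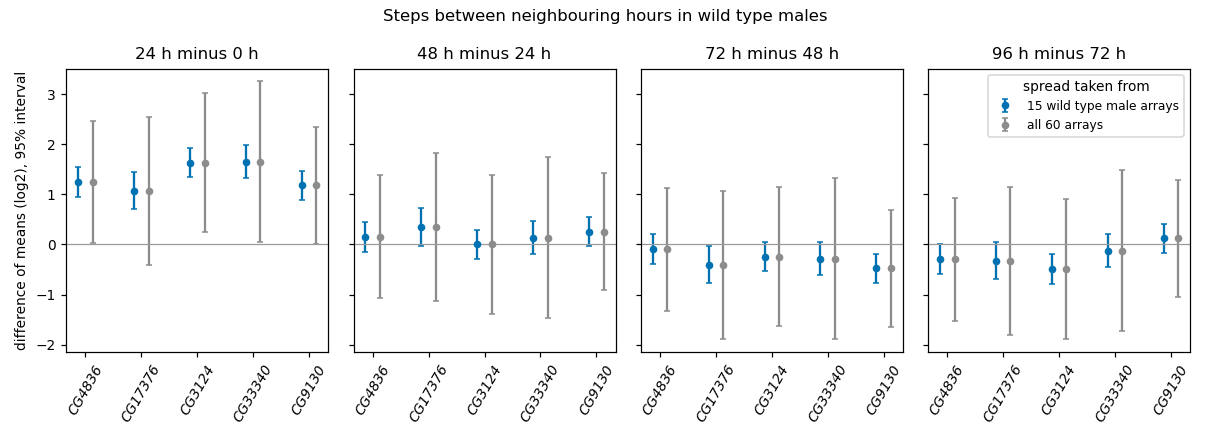
Differences between means of neighbouring hours in wild type males (vertical axis, log2) with 95% intervals for each of the 5 genes, with the spread taken from the 15 wild type male arrays (blue) or from all 60 arrays (grey). The blue intervals of the step to 24 h lie between 0.70 and 1.98, and the grey ones are several times wider around the same points.

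Whether the 5 genes changed by different amounts was examined on the difference between 2 genes on the same array, for all 10 pairs. The 12 later arrays were set against the 3 at 0 h, the split made after the gap had been seen. The permutations also treated the 12 later arrays as interchangeable, though they came from different hours. The p-values of the pairs are therefore descriptive and cannot decide whether the genes differed. At an adjusted p below 0.05, the threshold set for this test, 0 of 10 pairs passed (exact two-sided permutation tests, adjusted over the 10 pairs). The threshold of the fits above, 0.15, was applied to the pairs only after seeing the data. At 0.15, 4 of 10 pairs passed, and all 4 held CG33340. The lowest was that of CG4836 and CG33340, where CG33340 changed by 0.34 more (p = 0.00879, adjusted p = 0.0879, exact permutation test). The largest contrast was between CG17376 and CG33340, where CG33340 changed by 0.53 more (adjusted p = 0.0989, exact permutation test). CG33340 also changed by 0.42 more than CG9130 and by 0.19 more than CG3124, with the same adjusted p of 0.0989 (exact permutation tests). The outcome rested on the 0 h arrays. Without 0 h replicate 1 or 2, 0 of 10 pairs passed either threshold, and without 0 h replicate 3, 6 passed 0.15 and 5 passed 0.05, 3 of these 5 with CG33340 (adjusted p = 0.0440 each, exact permutation tests). With 2 arrays left at 0 h, the exact permutation test can give no two-sided p below 0.0220. What passes after adjustment is then partly set by the test. At 0 h the gap of CG4836 over CG33340 was 0.32 ± 0.14 (SD, n = 3), while over the later arrays it was -0.03 ± 0.14 (SD, n = 12).

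Across the 15 wild type male arrays the 5 genes followed each other with Pearson r between 0.89 and 0.97 over the 10 pairs, a description in which all points share the arrays. Without the 3 arrays at 0 h, r lay between 0.42 and 0.91, lowest for CG4836 and CG9130 and highest for CG17376 and CG33340. The median r of the 10 pairs was 0.92 with these arrays and 0.71 without them.

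Outside wild type males the 5 genes were far below the reference at every hour: 218 of 225 values were present, and they lay between -8.67 and -2.69 with a median of -5.66, whereas the 75 values of wild type males lay between -0.68 and 1.42. Without the 2 tud male arrays that stood apart, the highest value outside wild type males was -3.09. The low values and those of wild type males are the ones on which the genes were chosen. Since it is not known how far such low ratios stand above background, the folds below may be too small or too large.

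CG4836 had a median of -5.84 in tud males (range -6.84 to -2.93), 1.04 in wild type males (-0.32 to 1.31), -6.13 in tud females and -6.22 in wild type females. CG17376 had a median of -5.38 in tud males (-7.09 to -2.76), 0.96 in wild type males (-0.44 to 1.42), -5.96 in tud females and -5.94 in wild type females. Wild type males did not overlap with any other animals in either gene.

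CG3124 had a median of -6.35 in tud males (-7.43 to -2.87), 1.11 in wild type males (-0.48 to 1.39), -6.18 in tud females and -5.73 in wild type females. CG33340, the gene with most missing values (5 of 60 arrays, all in females), had -5.85 in tud males (-7.02 to -2.78), 1.11 in wild type males (-0.68 to 1.40), -6.35 in tud females and -5.01 in wild type females. CG9130 was the least low outside wild type males, at -4.47 in tud males (-6.04 to -2.69), 0.81 in wild type males (-0.43 to 1.21), -4.78 in tud females and -4.49 in wild type females.

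**Figure D4:**
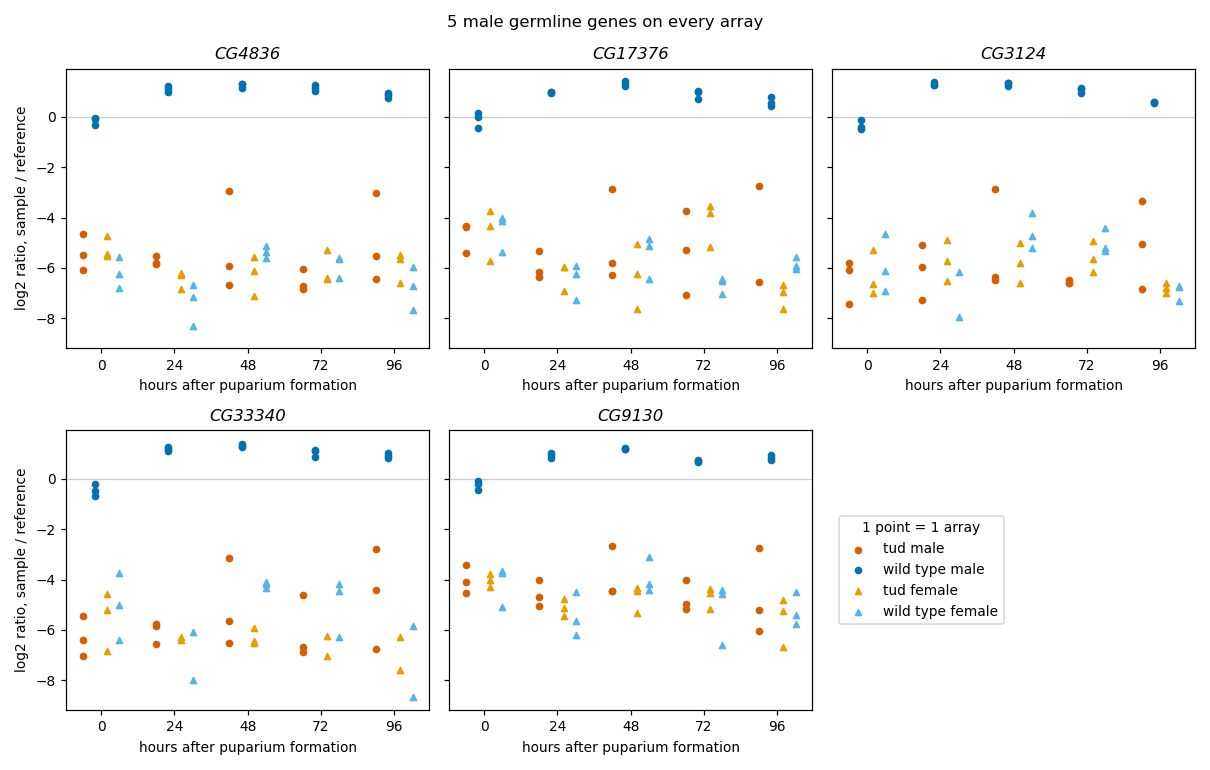
The log2 ratio to the reference (vertical axis) of each of the 5 genes at each hour APF (horizontal axis), 1 point for each array, in tud males, wild type males, tud females and wild type females from left to right within an hour. Wild type male points lie between -0.68 and 1.42, and all other points between -8.67 and -2.69.

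Averaged over the 5 hours, wild type male minus tud male was 6.67 ± 0.31 for CG3124, 6.43 ± 0.35 for CG33340, 6.41 ± 0.27 for CG4836, 5.88 ± 0.34 for CG17376 and 5.05 ± 0.26 for CG9130 (log2, SE of the 60-array fit). Without the 2 tud male arrays that stood apart, the 5 differences ran from 5.36 to 7.08. Wild type male minus wild type female was 7.17 ± 0.27 for CG4836, 6.68 ± 0.32 for CG3124, 6.54 ± 0.33 for CG17376, 6.50 ± 0.37 for CG33340 and 5.47 ± 0.26 for CG9130. In animals without germ cells, tud male minus tud female averaged 0.15 to 0.73 over the hours with all arrays, and -0.26 to 0.34 without the 2 arrays. Single hours went further both ways, from -1.19 ± 0.73 at 72 h to 2.44 ± 0.82 at 96 h, both for CG17376. Without the 2 arrays, the highest was 1.36 ± 0.83 for CG33340 at 96 h. Wild type female minus tud female averaged -0.34 to 0.66, with single hours from -2.49 ± 0.73 for CG17376 at 72 h to 2.10 ± 0.79 for CG33340 at 48 h (SE).

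Changes with time were also tested in the 3 kinds of animal where the genes were low. In tud males the 60-array fit called CG4836 and CG3124 (limma adjusted p = 0.127 each), 2 of 5 where 90.2% of probes were called, and the fit of the 15 tud male arrays called 0 of 5, where 85.5% were. Without the 2 arrays that stood apart, 4 genes could be tested on the 13 others. CG9130 (limma adjusted p = 0.0626) and CG4836 (adjusted p = 0.118) were called, 2 of 4 where 2783 of 3135 probes were. With 1 array left out of the 60, 0 of 5 were called without tud male 72 h replicate 2 or 3, 1 of 5 without 0 h replicate 2 or 96 h replicate 3, 3 of 5 without 0 h replicate 1 or 48 h replicate 2, and 3 of 4 tested without 96 h replicate 1.

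In wild type females all 5 were called in both fits, against 88.7% of probes over 60 arrays and 87.5% over 15 arrays, with adjusted p from 0.00431 to 0.0467 in the 60-array fit (limma). CG4836 averaged -7.37 ± 0.85 at 24 h and -5.36 ± 0.24 at 48 h in wild type females (SD, n = 3), and its means of the other hours lay between these. The mean was highest at 48 h for CG4836, CG3124, CG33340 and CG9130, and at 0 h for CG17376. The low end of the arrays moved as well: their lowest 1% of probes ended at -6.04 to -4.92 in wild type females at 24 h and at -4.94 to -4.24 at 48 h, and its part in the result was not tested. Without wild type female 24 h replicate 1 or 3, CG3124 and CG33340 had too few values to be tested, and the other 3 were called.

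In tud females the 60-array fit called CG17376 (limma adjusted p = 0.00122) and CG9130 (adjusted p = 0.120), 2 of 5 where 92.0% of probes were called, and the fit of the 15 tud female arrays called 3 of 5, where 89.8% were. CG17376 averaged -4.18 ± 0.88 at 72 h and -7.10 ± 0.49 at 96 h in tud females (SD, n = 3), and the lowest 1% of probes ended at -4.06 to -3.61 on those 72 h arrays and at -5.49 to -5.21 on those of 96 h, and its part in the result was not tested. Leaving out 48 h replicate 1 or 2, whose labels conflict, kept both calls. The 60-array fit lost the call of CG9130 without tud female 0 h replicate 1 or 3 or 96 h replicate 1.

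To place the 5 genes among the rest, the 3 probes most like each were taken by Pearson r, as a description. Over the 15 wild type male arrays, among 2544 probes with a value on all of them, r of the 15 probes named lay between 0.96 and 0.99. CG17376 was most like Male-specific RNA 84Dc (r = 0.98), a gene of the sperm tail protein family Mst84D, and next like CG17377 (0.98), which is its direct neighbour on chromosome arm 2L, and CG13340 (0.97). CG9130 was most like DAC026P10, a probe with no name in the tables used (0.98), and then like arrest (0.97), which encodes an RNA-binding translational repressor of the germline, and CG32064 (0.97). arrest, like CG9130, had a lower mean at 72 h (0.61) than at 96 h (0.91) in wild type males.

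CG4836 and CG33340 shared CG3213 (r = 0.97 and 0.98) and CG5144 (0.97 and 0.98) among their 3 most like probes. CG4836 also had DAC019G06, another unnamed probe (0.96), and CG33340 had CG4669 first (0.99). CG3124 was most like CG3982 (0.98), CG4439 (0.98) and CG4750 (0.97). By Spearman correlation 4 of these 15 were again among the first 3. Of the 13 different probes, 11 stand on the list of male germline genes that the study drew from these same arrays, as did 15.3% of the candidates.

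Over all 60 arrays, among 3236 probes with a value on at least 54, r of the 15 named lay between 0.96 and 0.98. Male-specific RNA 98Ca, a sperm tail gene of the same family as the Mst84D genes, was the most like of all for CG4836 (r = 0.98), CG3124 (0.98) and CG9130 (0.97), and among the first 3 for CG33340 (0.97). CG6372 came second for both CG4836 (0.98) and CG9130 (0.97), and CG32064 followed for CG4836 (0.97). CG17376 was most like CG9920 (0.97), CG5538 (0.97) and CG17567 (0.96), CG33340 most like CG32820 (0.98) and then CG4439 (0.98), CG3124 had CG4439 (0.97) and CG3213 (0.97) after Mst98Ca, and CG9130 also had CG1288 (0.96). With group means in place of arrays, 12 of the 15 were again among the first 3. Of the 10 different probes here, 10 stand on the same list, as did 10.1% of the candidates. Since the list came from these arrays, neither count is independent evidence. Over 60 arrays the likeness also follows the contrast of wild type males with the other animals, by which the 5 genes were chosen, so it restates that choice.

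The course in wild type males was then set beside 20 known genes of spermatogenesis, 3 regulators and 17 genes of sperm and spermatids, none of them one of the 5. All 20 are also on the study's male germline list, so their direction is not independent evidence. From 0 h to 24 h 16 of 20 were called higher and 0 lower in the 15-array fit, against 25.8% of all probes higher, with a median of 1.11 against 0.09 over all probes tested. In the 60-array fit 9 of 20 were called higher, against 20.5%. beta-Tubulin at 85D, the testis tubulin of the meiotic spindle and the sperm axoneme, rose by 1.51 ± 0.13 (SE, limma adjusted p = 3.94e-06). Male-specific transcript 77F, a protein of condensed sperm chromatin, rose by 2.09 ± 0.37 (adjusted p = 0.000808), and boule, an RNA-binding regulator of entry into meiosis, by 1.54 ± 0.28 (adjusted p = 0.00147, values on 2 of 3 arrays at 0 h). vismay, a transcription factor of the spermatocyte programme, rose by 0.45 ± 0.20 (adjusted p = 0.106). Other genes of the list moved less or the other way. Tektin A had means of -0.43 at 0 h and -0.10 at 24 h, and janus A 0.37 and 0.20.

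From 24 h to 48 h 0 of 20 were called in the 15-array fit, as among the 5. From 48 h to 72 h 3 of 20 were called lower, against 17.7% of all probes, a share no higher than the background: beta-Tubulin at 85D fell by 0.55 ± 0.13 (SE, limma adjusted p = 0.0117), Hsp60C, a chaperonin of spermatid development, fell by 0.40 ± 0.14 (adjusted p = 0.0720), and Sperm-specific dynein intermediate chain 2 fell by 0.27 ± 0.12 (adjusted p = 0.148). From 72 h to 96 h 9 of 20 were called lower and 1 higher, Tektin A (0.48 ± 0.24, adjusted p = 0.137), against 28.6% of all probes lower. In the 60-array fit 2 of 20 were called lower at that step, against 26.7% of all probes. The mean was highest at 48 h for 5 of the 5 genes and for 9 of the 20, and at 24 h for 7 of the 20. Of the rest, 2 had it at 72 h, 1 at 0 h (janus A) and 1 at 96 h (Tektin A). How many of all probes had their highest mean at 48 h was not counted.

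**Figure D5:**
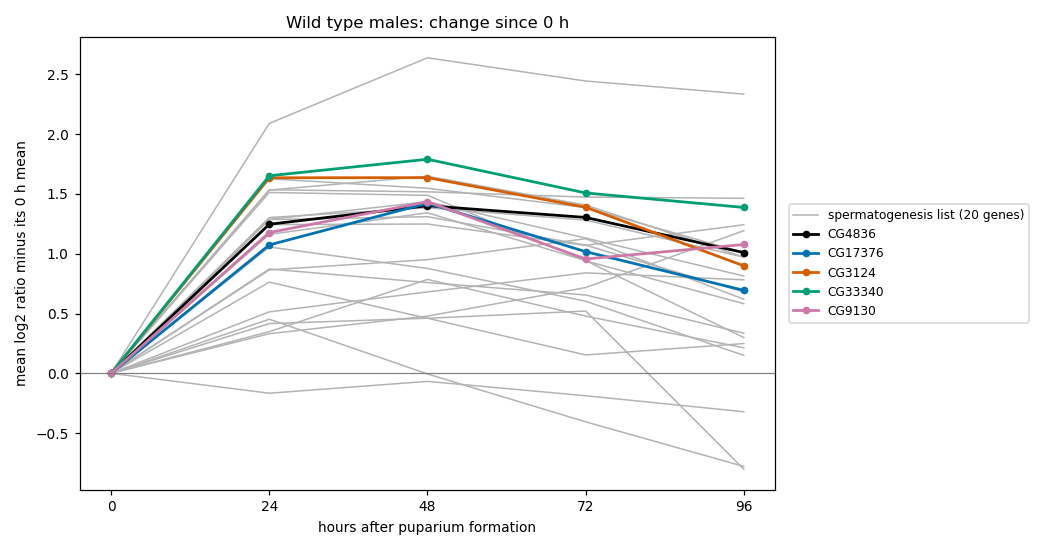
The mean log2 ratio in wild type males minus its mean at 0 h (vertical axis) by hour APF (horizontal axis), for the 5 genes (colours) and the 20 genes of the spermatogenesis list (grey). The 5 genes have their highest mean at 48 h and lie within the range of the grey lines at every hour.

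Genes of the soma moved in the same animals. roX1, which male cells of the soma express, rose by 0.71 ± 0.18 from 0 h to 24 h in wild type males (SE of the 15-array fit, limma adjusted p = 0.00856), fell by 0.57 ± 0.18 from 48 h to 72 h (adjusted p = 0.0397) and fell by 0.61 ± 0.18 from 72 h to 96 h (adjusted p = 0.0148). Of the 3 larval serum protein genes, storage proteins of the larval fat body, all 3 were called lower from 72 h to 96 h: Larval serum protein 1 alpha fell by 1.38, beta fell by 2.32 and gamma fell by 2.84. yolkless, the yolk receptor of the oocyte, had values on 11 tud male, 10 wild type male, 9 tud female and 12 wild type female arrays, with medians of 0.15, -0.32, 0.46 and 0.67 in that order. Its values in tud females (-0.51 to 1.32) and in wild type females (-0.10 to 1.28) overlapped, so it did not set animals with a female germline apart here. The part of these tissues in the steps of the 5 genes was not tested.

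In the order of RefSeq genes (Release 6), CG4836 and CG33340 lie on chromosome arm 3R, CG17376 on 2L, CG3124 on 2R and CG9130 on 3L, so the 5 are not one cluster. Probes are paired with genes here only through the study's published lists, and 9 of the 40 genes up to 4 places away from the 5 had a probe. This look at the neighbours was chosen after values had been seen. Of the 9, 2 had a wild type male median more than 2 above their tud male median, and both are direct neighbours: CG17377, next to CG17376, with -4.04 in tud males, 1.04 in wild type males and -4.32 in wild type females, and Bfc, next to CG9130, with -3.19 in tud males, 1.03 in wild type males and -2.77 in wild type females. The others were smaller: Prosbeta5R1, a testis form of a proteasome subunit 2 places from CG3124, had medians of -0.69 in tud males and 0.67 in wild type males, and psidin, 2 places from CG4836, had -0.64 in tud males and -0.23 in wild type males. Whether neighbouring probes share sequence was not tested. The lists that pair probes with genes include the study's male germline list of 671 probes. How many of all paired probes have a gap of more than 2 was not counted, so 2 of 9 has no background beside it.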

How the data were processed

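Values were the log2 ratios that the authors deposited, sample over common reference, after loess normalization within each array in LIMMA. They discarded flagged spots and spots with neither channel above background; background correction and scaling between arrays are not given in the sources used here. No depth applies to arrays, and their number limits precision. Of 15776 elements 32 controls were left out, and 0 columns belonged to no sample. Probe names came from the study's published lists (2357 probes), gene order from RefSeq. No probe sequence was used here.

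limma 3.58.1 in R 4.3.3 fitted 20 group means to 60 arrays, or 5 to the 15 arrays of a genotype and sex. Calls had an adjusted p below 0.15 (Benjamini-Hochberg over all probes tested, with a value on at least 2 of 3 arrays in each group compared). Permutation tests used scipy 1.17.1. The code was tested on simulated data. Alternatives were centring, quantile normalization, other filters, array weights, a replicate block, a threshold of 0.05 and leaving out arrays.

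Genes named were the 5, the marker lists, roX1 and the 3 probes most like each of the 5 by 2 measures. The 5 genes and the lists were chosen with earlier results of these data known.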

Additional observations from a re-analysis of the deposited data

How the results depend on the processing

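Of the 5 genes, the joint time test in wild type males called 1 over 60 arrays, 5 over the 15 arrays alone, 3 after centring, 5 after quantile normalization, 0 at a threshold of 0.05 and 4 without the 2 tud male arrays (chosen after seeing the data). In tud males 2 became 0 over 15 arrays, 5 after quantile normalization or with array weights and 0 at 0.05. In wild type females 5 became 3 with values on all 3 arrays, since 3 were then tested. In tud females 2 became 4 after quantile normalization, and 1 with array weights or at 0.05. The step to 24 h went from 4 to 2 with array weights and 0 at 0.05, and the last 2 steps from 0 to 2 each over 15 arrays. In the 15-array fits the genes' residual SD was smaller than over 60 arrays in wild type males and larger in tud males. The cause of the other moves was not tested. The share of all probes called is not set beside each of these counts, nor beside those with 1 array left out. In the main joint tests over 60 arrays it was 81.7% in wild type males to 92.0% in tud females. None of these counts therefore marks out the 5 genes.

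Leaving out 1 array at a time, the joint test called 0 to 1 in wild type males, 0 to 3 in tud males, 3 to 5 in wild type females (3 of 3 tested at the lowest) and 1 to 2 in tud females, and the step to 24 h 0 to 3. Over the 15 wild type male arrays it called 5 to 5 jointly and at the step to 24 h, 0 to 0 at 48 h, 1 to 2 at 72 h and 1 to 3 at 96 h. Pairs of genes that passed, on a split also chosen after seeing the data, numbered 0 at an adjusted p below 0.05. Below 0.15 (chosen after seeing the data) they numbered 4. With 1 array left out, 0 to 5 passed below 0.05 and 0 to 6 below 0.15.

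Over all probes, requiring 3 values cut the jointly called to 2178 in wild type males, 1799 in tud males, 2000 in wild type females and 1728 in tud females, because fewer were tested. The step to 48 h called 2109 with array weights and 711 at 0.05, and the step to 72 h 2967 after quantile normalization and 3118 with array weights. With 1 array left out, all-probe counts ran from 588 to 1493 at the step to 48 h, and over 15 arrays from 292 to 1745 at that step and from 1366 to 1533 at the step to 72 h.

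The deviations of same-numbered arrays of different hours had a median r of -0.03 in wild type males and 0.00 in tud males. The median was 0.05 in wild type females and 0.01 in tud females, while single pairs reached 0.47 in wild type females. Same-numbered arrays of different animals at one hour were not compared, so the check does not settle whether the numbers pair the arrays. With the replicate block the counts stayed at 1, 2, 5 and 2 of 5 in the joint tests of wild type males, tud males, wild type females and tud females, 4 at 24 h and 0 at the later steps. Log2 ratios far below 0 may be limited by background, which the deposited values do not show.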
